A study of Homo sapiens with 18 samples.

Results

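ETS factors are transcription factors that share the ETS domain, a fold that binds DNA at sites with the core letters GGAA. The 10 ETS genes described here were chosen by name, as members of the family that are known to work beside RUNX proteins or to be prominent in epithelial cells: ETS1, ETS2, ELF1, ELF3, ELF4, EHF, ELK3, ETV1, ETV4 and ETV5. They are 10 of the 28 ETS genes of the human genome and 10 of the 19401 genes listed in any of the 3 knockout tables, and each was listed and tested in all 3. Their rows were found by gene symbol and joined by Entrez ID.

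RUNX1 and ETS1 are a classic example of cooperative DNA binding. On composite sites with a RUNX and an ETS motif next to each other, each protein helps the other to bind, and for ETS1 this contact relieves the inhibition that its own flanking helices put on the ETS domain. CBFB, which does not touch DNA, raises the affinity of RUNX proteins for their site. Many ETS proteins are also end points of the ERK pathway: ETS1 and ETS2 are phosphorylated by ERK, as are ELK3 and the PEA3 group of ETV1, ETV4 and ETV5.

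The 18 samples were RNA-seq libraries of MCF10A, a human mammary epithelial line that is immortalized and non-tumorigenic, in 5 groups. The CBFB experiment had 3 CBFB KO and 3 WT samples, and the RUNX1 experiment had 4 samples each of KO1, KO2 and WT. All were untreated MCF10A cells below passage 30, grown in medium with horse serum, insulin, EGF, hydrocortisone and cholera toxin. EGF is an activator of the ERK pathway, and it was present in every group. The knockouts were made with CRISPR-Cas9 and grown from single cells. The labels name 1 CBFB knockout, without a number of clones, and 2 RUNX1 knockouts, KO1 and KO2, taken here as 2 clones. Clone and genotype thus cannot be told apart in any single comparison. Nothing in the labels says that the repeats of a group were separate clones, and p-values measure the spread between these samples. KO1 and KO2 had the same 4 WT samples as their control.

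For each gene the deposited tables hold the mean over all libraries, the log2 fold change with its standard error (SE) and p-values. They hold nothing per library. Group means were therefore worked back from the mean and the fold change, in normalized counts, and the error of each is the spread between libraries in the fitted model, given as a coefficient of variation (CV). The deposited fold changes are shrunk toward 0, the more so the larger the SE. Fold changes with this shrinkage undone are given with a 95% interval. The undoing was checked on the WT samples that both RUNX1 tables share. The log2 ratio of the WT levels implied by the tables had an SD of 0.034 over 10174 genes as deposited and of 0.0057 with the shrinkage undone. In the CBFB table no such check could be made.

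The label of the CBFB knockout was borne out by CBFB mRNA, with a log2 fold change of -4.88. RUNX1 mRNA was higher in KO1 (0.54) and KO2 (0.46) and does not check the RUNX1 label. Over genes whose mean reached 100, the median CV between libraries was 10.5% for CBFB KO, 10.6% for KO1 and 22.5% for KO2, which makes the KO2 values the least precise. Of 10 markers of mammary basal cells, all reached a mean of 100 in the CBFB and KO1 tables and 9 did in the KO2 table, in which KRT14 was not listed. Their summed level was 236220 in WT against 235780 in CBFB KO, 270360 against 345440 for KO1 and 253150 against 328580 for KO2. KRT5 and KRT6A, with means of 87894 and 77141, carry most of the sum in the CBFB table. The KO2 sum lacks KRT14. KRT14 was higher in CBFB KO and KO1 (2.97 and 2.95, adjusted p = 2.49e-76 and 4.45e-174), as was TP63 (0.76 and 1.08, adjusted p = 2.85e-10 and 3.86e-31). KRT5 was lower in both (-0.27 and -0.24, adjusted p = 0.0482 and 0.0193). KRT17, ITGB4 and CDH3 were higher past the adjusted threshold in both (0.57, 0.63 and 0.68 in CBFB KO, 0.69, 0.78 and 0.62 in KO1). In KO2, KRT17 (1.27), ITGB4 (0.55) and LAMB3 (0.46) were higher past that threshold. TP63 (0.55, adjusted p = 0.227), CDH3 (0.42, adjusted p = 0.0629) and KRT5 (-0.26, adjusted p = 0.160) did not pass it in KO2. All 5 endothelial markers had means under 10 in every table, ERG among them. Of the 6 blood markers, CD14 was above 100 and the others were under 10 or not listed, PTPRC and SPI1 among them. Of the 5 fibroblast markers, COL1A1 was above 100 and the other 4 were under 10 or not listed, and the summed level was 160 in WT against 429 in CBFB KO, 151 against 480 for KO1 and 142 against 350.2 for KO2. That sum is nearly all COL1A1. DCN, at means of 6.66 to 7.34, went the other way and was lower past the adjusted threshold in every table (-1.06, -1.80 and -1.61, with adjusted p-values of 0.00155, 1.11e-07 and 2.91e-04). Of the 7 luminal markers 4 were above 100, and the summed level of the list was 14011 normalized counts in WT against 29007 in CBFB KO, 20887 against 25562 for KO1 and 19705 against 40200 for KO2. KRT8 and KRT18 carry nearly all of this sum. KRT8 was higher in every table (1.36, 0.44 and 1.01, with adjusted p-values of 4.28e-29, 6.05e-04 and 0.00236). KRT18, the larger part of the sum, was higher past the adjusted threshold in CBFB KO only (0.92, adjusted p = 1.14e-17). Its KO1 and KO2 values were 0.19 and 0.78 (adjusted p = 0.131 and 0.105). ESR1 and FOXA1 passed in no table. GATA3 was lower in KO1 (-0.26, adjusted p = 0.0360), and its CBFB KO and KO2 values were -0.33 and 0.03 (adjusted p = 0.0991 and 0.943). The part of these marker changes in the values of the ETS genes was not tested.

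The upstream sequence of 2 of the genes, ETS2 and ETV1, is shown because ETS2 was lower past the adjusted threshold in every table and ETV1 had the lowest fold changes of the 10. They were chosen after these values were seen. Of the 2 entries of ETS2 and the 6 of ETV1, the one with the RUNX letters was printed for each. RefSeq (GRCh38.p14) gave 19 promoter entries for 7 of the 10 genes and none for ETS1, ETV4 and ETV5. The 250 bases before each start were searched on both strands for the RUNX letters TGTGGT (reverse complement ACCACA) and the ETS letters CCGGAA (reverse complement TTCCGG). The RUNX letters stood in 4 of the 19 entries, 1 each of ETS2, ELF4, EHF and ETV1, and the ETS letters in 3 entries, all of ETV1, of which 2 windows overlap nearly whole and hold the same site. Over 35116 RefSeq promoters the shares were 10.98% and 14.5%. In the lines below, capitals mark these letters, and each sequence runs from 5′ to 3′ toward the start. The ETS2 window is chr21:38804933-38805182 on the plus strand, with the RUNX letters at position -240. The ETV1 window is chr7:13991426-13991675 on the minus strand, with the RUNX letters at -214 and the ETS letters at -136.
ETS2: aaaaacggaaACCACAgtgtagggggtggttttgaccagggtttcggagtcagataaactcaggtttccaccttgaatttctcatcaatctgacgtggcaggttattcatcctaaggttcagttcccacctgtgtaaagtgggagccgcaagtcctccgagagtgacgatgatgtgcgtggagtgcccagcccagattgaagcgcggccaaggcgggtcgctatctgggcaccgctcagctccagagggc
ETV1: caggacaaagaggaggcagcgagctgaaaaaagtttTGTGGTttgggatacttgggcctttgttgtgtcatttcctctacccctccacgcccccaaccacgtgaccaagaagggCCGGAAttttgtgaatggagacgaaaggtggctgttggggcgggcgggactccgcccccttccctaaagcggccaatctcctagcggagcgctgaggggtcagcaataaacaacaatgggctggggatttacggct

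In the ETS2 window the RUNX letters follow directly on the letters ggaa, the core of an ETS site. The joined letters GGAAACCACA, or TGTGGTTTCC on the other strand, were in 54 of the 35116 promoters (0.154%) and in 1 of the 19 entries. This search was added after the sequence had been read, and the match is a description of letters, not of bound proteins.

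No ETS gene of the 10 passed both thresholds of the study, a fold change of 2 or more and an adjusted p-value under 0.05, in any table. Over all genes tested the share was 2.98% for CBFB KO, 4.93% for KO1 and 5.48% for KO2. The changes were thus smaller than 2-fold as deposited. With the adjusted p-value alone, the genes that differed from WT numbered 3 of 10 for CBFB KO, 7 for KO1 and 1 for KO2. In CBFB KO all 3 were lower (ETS2, ETV1 and ETV5), where 7.97% of all genes tested were lower and 11.7% higher. In KO1, 4 were lower (ETS2, ETV1, ETV4 and ETV5) and 3 higher (ETS1, ELF1 and ELK3), against 19.9% and 19.7% of all genes. In KO2 only ETS2 was lower and none was higher, against 6.08% and 8.76%. At an unadjusted p-value under 0.05, 4, 8 and 4 of the 10 differed, against 30.6%, 45.8% and 24.1% of all genes tested. The median log2 fold change of the 10 genes was 0.06, -0.12 and -0.12 in CBFB KO, KO1 and KO2, against -0.01, -0.0017 and 0.02 over all genes tested. Once the shrinkage was undone, ETV1 in CBFB KO passed both thresholds, 1 of 10 genes, and none did in KO1 or KO2. The shares over all genes were then 4.62%, 6.95% and 6.18%.

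**Figure D1:**
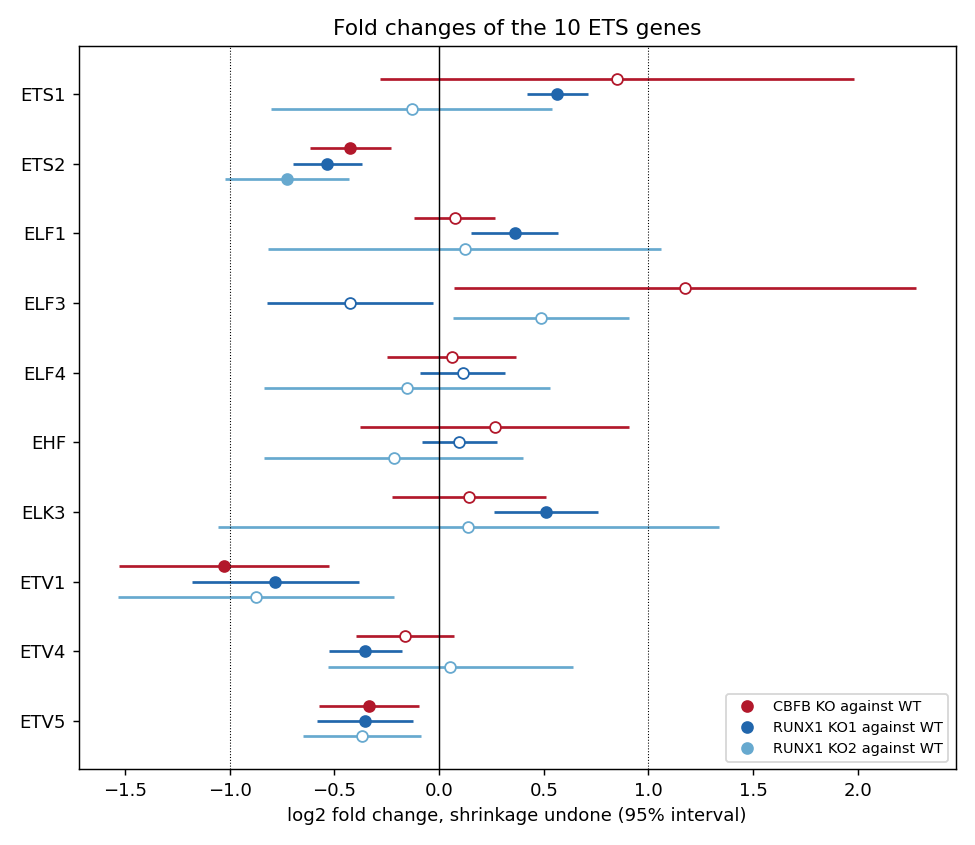
Log2 fold change of each ETS gene against WT with the shrinkage undone (points) and its 95% interval (lines), for CBFB KO, RUNX1 KO1 and RUNX1 KO2. Filled points have an adjusted p-value under 0.05, and dotted lines mark a 2-fold change. ETS2, ETV1 and ETV5 lie left of 0 in all 3 comparisons with intervals that do not reach 0. The widest intervals are those of ELK3 and ELF1 in KO2, and of ETS1 and ELF3 in CBFB KO.

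ETS1 and ETS2, the founding pair of the family, moved in different ways. ETS2, whose product is switched on by ERK phosphorylation, was lower in every knockout. In CBFB KO its mean was 865 normalized counts against 1160 in WT, with a CV of 8.39%. In the RUNX1 experiment it was 854 in WT, 591 in KO1 and 516 in KO2, on the scale of the KO1 table. KO1 and KO2 thus both lay below their common WT. The deposited log2 fold change was -0.41 in CBFB KO (SE 0.10, adjusted p = 2.87e-04), -0.52 in KO1 (SE 0.08, adjusted p = 3.22e-09) and -0.70 in KO2 (SE 0.15, adjusted p = 3.60e-05). With the shrinkage undone ETS2 was at 0.746 times its WT level in CBFB KO (95% interval 0.652 to 0.853), 0.691 times in KO1 (0.617 to 0.775) and 0.605 times in KO2 (0.493 to 0.743). ETS2 was the only one of the 10 to be lower past the adjusted threshold in every table, which held for 338 of 14500 genes tested in all (2.33%). One annotated pseudogene, ETS2P1, can share its reads.

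ETS1, the partner of RUNX1 on composite sites, was higher in KO1. Its mean was 1206 normalized counts in the WT of the RUNX1 experiment, 1784.5 in KO1 and 1101 in KO2. KO1 was above WT and KO2 was not. The KO1 change of 0.56 (SE 0.07, adjusted p = 5.37e-13) was the most precise of the 10 genes, with a CV of 7.24%, and corresponds to 1.48 times WT with the shrinkage undone (95% interval 1.34 to 1.64). In KO2 the fold change was -0.11 (SE 0.29, adjusted p = 0.894), with an interval of 0.573 to 1.46 times WT, which reaches into the interval of KO1. In CBFB KO the mean of ETS1 was 3765 against 2089.6 in WT. This was 1.80 times WT with the shrinkage undone, with an interval of 0.823 to 3.95, and 0.43 on the log2 scale as deposited (SE 0.29, adjusted p = 0.332). The CV of ETS1 in that table was 49.0%, above that of 99.9% of genes whose mean reached 100. Which library or group differed cannot be read from the table.

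**Figure D2:**
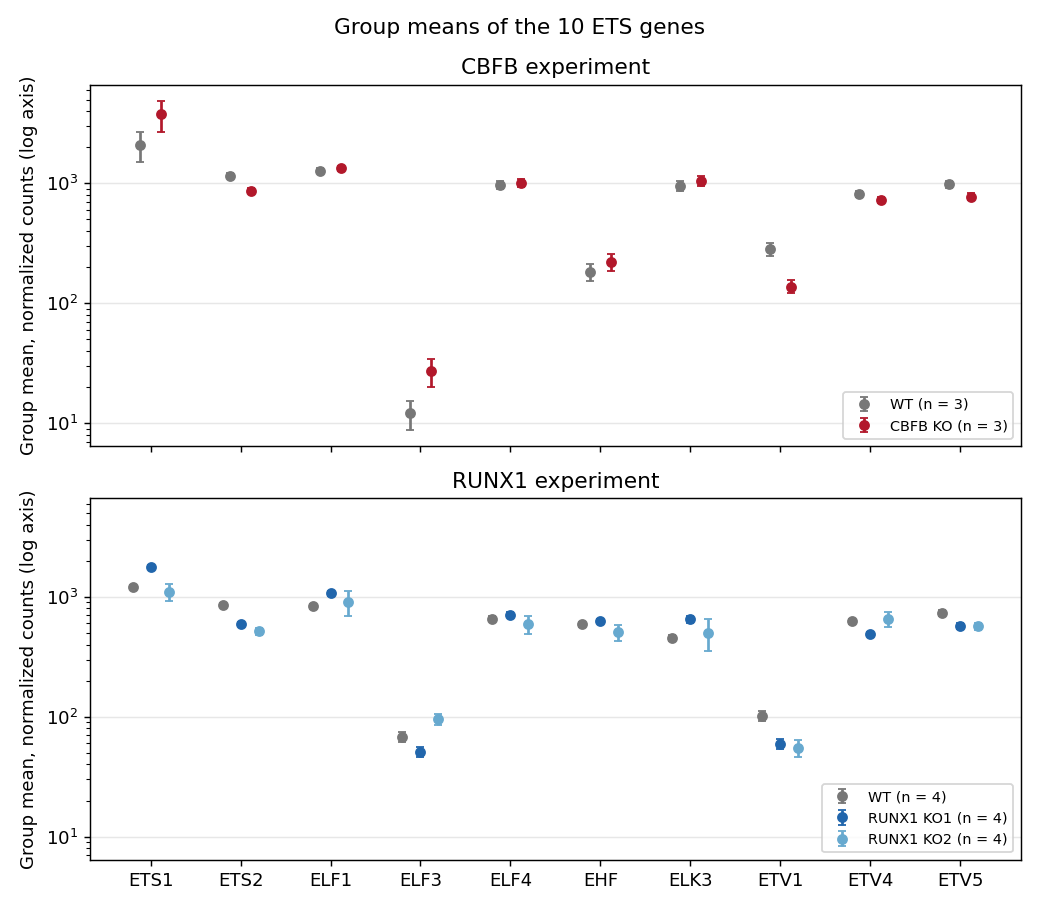
Group means of the 10 ETS genes in normalized counts (log axis), worked back from the deposited means and fold changes, with bars for the fitted CV divided by the root of the number of samples. Upper panel: WT and CBFB KO, 3 samples each. Lower panel: WT, RUNX1 KO1 and RUNX1 KO2, 4 samples each, on the scale of the KO1 table. ELF3 and ETV1 are the lowest of the 10 in the RUNX1 experiment, and the bars of ETS1 are wide in the CBFB experiment and narrow in WT and KO1.

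The PEA3 group holds ETV1, ETV4 and ETV5, activators that are induced by growth factors and degraded through the ubiquitin ligase COP1. All 3 were lower in KO1, and ETV1 and ETV5 were also lower in CBFB KO. ETV1 had the lowest fold change of the 10 genes in each table. Its mean was 281 normalized counts in the WT of the CBFB experiment and 138 in CBFB KO. In the RUNX1 experiment it was 102 in WT, 59.2 in KO1 and 55.3 in KO2, so that both clones lay at a little over 0.5 of WT. The deposited log2 fold changes were -0.86 in CBFB KO (SE 0.21, adjusted p = 7.10e-04), -0.71 in KO1 (SE 0.18, adjusted p = 5.67e-04) and -0.75 in KO2 (SE 0.29, adjusted p = 0.0603). The KO2 value did not pass the adjusted threshold. With the shrinkage undone ETV1 was at 0.491 times WT in CBFB KO (95% interval 0.347 to 0.694), 0.582 times in KO1 (0.442 to 0.766) and 0.546 times in KO2 (0.346 to 0.863).

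ETV5 had nearly the same estimate in each comparison. Its mean went from 979 to 777 normalized counts in CBFB KO, and it was 736 in the WT of the RUNX1 experiment, 576 in KO1 and 570.2 in KO2. The deposited log2 fold changes were -0.32 (SE 0.12, adjusted p = 0.0340), -0.34 (SE 0.11, adjusted p = 0.00809) and -0.36 (SE 0.14, adjusted p = 0.0643) in CBFB KO, KO1 and KO2. Undone, these were 0.794, 0.782 and 0.774 times WT, and only the KO2 value missed the adjusted threshold. The neighboring gene DGKG overlaps ETV5 on the same strand. ETV4 was lower in KO1, where its mean was 490 against 625 in WT (log2 fold change -0.35, SE 0.09, adjusted p = 3.66e-04). In KO2 its mean was 650.2 on the same scale and its log2 fold change 0.05 (SE 0.26, adjusted p = 0.954), with an interval of 0.692 to 1.56 times WT. In CBFB KO it was 733 against 820 in WT (log2 fold change -0.15, SE 0.12, adjusted p = 0.386). DHX8 overlaps ETV4 on the other strand.

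ELF1 and ELF4 are relatives that are broadly expressed and best known from lymphocytes. ELF1 was higher in KO1, at 1068 normalized counts against 832 in WT (log2 fold change 0.35, SE 0.10, adjusted p = 0.00266). In CBFB KO it was 1338 against 1270.1 in WT, which differed by less than the spread between libraries (log2 fold change 0.07, SE 0.10, adjusted p = 0.673). Its KO2 mean was 905 and its CV in the KO2 table was 47.0%, against 10.4% in the KO1 table with the same WT samples. The KO2 log2 fold change of 0.09 had an SE of 0.36 (adjusted p = 0.933). WBP4 overlaps ELF1 on the other strand. ELF4 differed from WT in no table. Its log2 fold changes were 0.06 (SE 0.15), 0.11 (SE 0.10) and -0.13 (SE 0.30), with adjusted p-values of 0.849, 0.413 and 0.875, at means of 972 to 1013 in the CBFB experiment and 591 to 711 in the RUNX1 experiment. The narrowest interval, that of KO1, ran from 0.941 to 1.24 times WT.

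ELF3 and EHF belong to the ETS genes of epithelia, which act in epithelial differentiation and in the response to inflammation. EHF differed from WT in no table, with log2 fold changes of 0.20 (SE 0.25, adjusted p = 0.647), 0.10 (SE 0.09, adjusted p = 0.431) and -0.19 (SE 0.28, adjusted p = 0.782). Its mean was 183 in WT and 220 in CBFB KO, and 590 in WT, 631 in KO1 and 507 in KO2. ELF3 was the lowest of the 10 genes in the CBFB experiment, at 12.1 normalized counts in WT and 27.2 in CBFB KO. In the RUNX1 experiment it was 68.0 in WT, 50.7 in KO1 and 96.1 in KO2, so that the clones lay on opposite sides of WT. None of these changes passed the adjusted threshold, with log2 fold changes of 0.61 (SE 0.29, adjusted p = 0.133), -0.38 (SE 0.18, adjusted p = 0.0826) and 0.46 (SE 0.20, adjusted p = 0.121). The antisense transcript ELF3-AS1 overlaps ELF3.

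ELK3 is a ternary complex factor, which binds beside SRF and represses its targets until ERK phosphorylates it. It was higher in KO1, at 651 normalized counts against 457 in WT. Its log2 fold change there was 0.49 (SE 0.12, adjusted p = 2.73e-04), or 1.42 times WT with the shrinkage undone (95% interval 1.20 to 1.69). In CBFB KO it was 1050.3 against 951 (log2 fold change 0.13, SE 0.17, adjusted p = 0.672). In KO2 it was 503, and the log2 fold change was 0.09 (SE 0.39, adjusted p = 0.941). Its CV of 59.8% in the KO2 table was above that of 99.6% of genes whose mean reached 100, while in the KO1 table, with the same WT samples, it was 12.3%. An antisense transcript overlaps ELK3 as well. How the counting treated strand is not stated, so reads of ELF1, ELF3, ELK3 and ETV4 and of their antisense partners may not be separated.

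The 3 genes that were higher in KO1, namely ETS1, ELF1 and ELK3, were thus those with the widest KO2 intervals among the genes that changed in KO1. The median CV of the 10 genes was 14.6% for CBFB KO, 10.2% for KO1 and 31.9% for KO2. ETS2 and ETV5, with 14.8% and 14.1%, were the least variable of the 10 in the KO2 table.

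**Figure D3:**
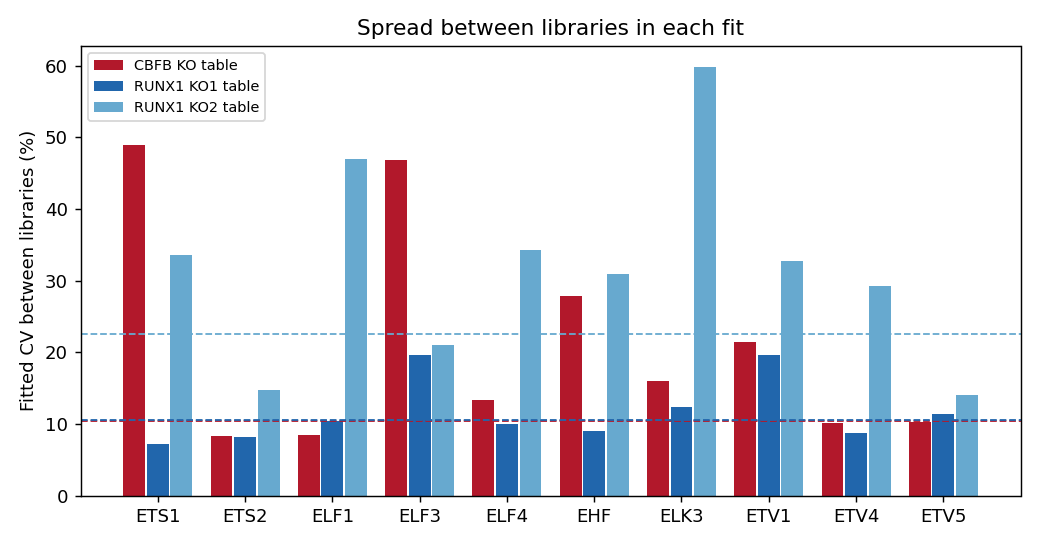
Coefficient of variation between libraries (percent) in the fit of each table for each ETS gene, with dashed lines at the median over genes whose mean reached 100 (10.5%, 10.6% and 22.5%). In the KO2 table ELK3 reaches 59.8% and ELF1 47.0%, and in the CBFB table ETS1 reaches 49.0% and ELF3 46.8%.

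By sign alone, ETS2, ETV1 and ETV5 were lower in all 3 tables and ELF1 and ELK3 higher in all 3, with 5 genes mixed. Of 10053 genes whose mean reached 100 in every table, 29.8% were lower and 27.8% higher in all 3. The 3 and 2 of 10 genes are thus near the background. ETV1 and ELF3 did not reach a mean of 100 in every table and so are not among the genes of this background. The RUNX1 tables share their WT, which aligns their signs.

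The response to CBFB loss was next compared with that of each RUNX1 clone, by a two-sided normal test on the deposited fold changes and SEs, adjusted over all genes tested in both tables. Against KO1, 1 of the 10 genes differed, while 9.84% of all genes did. This was ELF3, with 0.61 in CBFB KO and -0.38 in KO1, a difference of 0.99 (SE 0.35, adjusted p = 0.0437), and the call did not hold under the alternatives. The difference was 0.97 with both tables centred (adjusted p = 0.0511), 1.004 with the trend on length and GC removed (adjusted p = 0.0586) and 1.60 with the shrinkage undone (adjusted p = 0.0694), and ELF3 was too low to be tested among genes whose mean reached 100. Against KO2, 0 of the 10 differed, at the adjusted threshold or at an unadjusted p-value under 0.05, and 2.90% of all genes did. For ETS2 the difference of CBFB KO from KO1 was 0.11 (95% interval -0.14 to 0.36) and from KO2 0.29 (-0.05 to 0.63). For ETV1 it was -0.16 (-0.71 to 0.40) and -0.12 (-0.82 to 0.59), and for ETV5 0.02 (-0.29 to 0.34) and 0.04 (-0.32 to 0.39). For ETS1 it was -0.13 (-0.72 to 0.47) from KO1 and 0.54 (-0.27 to 1.35) from KO2. These intervals leave room for differences of about the size of the changes themselves. Which gene was knocked out and which experiment the samples came from cannot be told apart here.

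KO1 and KO2 were set side by side without a test, since they share WT. With the shrinkage undone the clones lay closest for ETV5 (log2 fold changes of -0.35 and -0.37), ETV1 (-0.78 and -0.87) and ETS2 (-0.53 and -0.72). They lay farthest apart for ELF3 (-0.42 and 0.49), ETS1 (0.57 and -0.13), ETV4 (-0.35 and 0.05) and ELK3 (0.51 and 0.14).

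Levels were compared between genes per kilobase of the longest annotated transcript and per 1000000 of the summed means of a table. In the WT of the CBFB experiment ETS1 was highest at 20.1, followed by ELF1 (17.6), ETV4 (16.7), ETS2 (14.6), ETV5 (11.8), ELF4 (11.5) and ELK3 (11.2). EHF (2.87), ETV1 (2.06) and ELF3 (0.1195) were lowest. In the WT of the RUNX1 experiment the order was ETV4 (14.3), ETS1 (13.0), ELF1 (12.9), ETS2 (12.03), EHF (10.4), ETV5 (9.92), ELF4 (8.75), ELK3 (6.02), ETV1 (0.837) and ELF3 (0.755). Many neighbors in these orders are not resolved. In the CBFB experiment ETS1, with its CV of 49.0%, was not separated from ELF1, ETV4, ETS2, ETV5, ELF4 or ELK3. Nor was ELF1 separated from ETV4, or ETV5, ELF4 and ELK3 from each other. In the RUNX1 experiment ETS1, ELF1 and ETS2, EHF and ETV5, and ETV1 and ELF3 differed by no more than their CVs. The order also depends on the transcript taken, since the median transcript length in place of the longest raised the levels by 1.04 to 7.17 times. In the WT of the CBFB experiment ETV5 and ELK3 then stood above ETS1, with 1706, 1275 and 979 normalized counts per kilobase, and ELF4 (242) stood beside ETV1 (246), above ELF3 (14.0).

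The other 18 ETS genes of the genome give the family background. Of these, the tables tested 11 for CBFB KO, 12 for KO1 and 12 for KO2. With the adjusted p-value alone 2, 1 and 1 were higher and none was lower in any table. Among all genes tested 11.7%, 19.7% and 8.76% were higher and 7.97%, 19.9% and 6.08% lower. ERF, a repressor that ERK exports from the nucleus, was higher in CBFB KO (0.47, adjusted p = 4.93e-04), as was FLI1 (0.46, adjusted p = 0.0483), which is best known from endothelium and blood. ETV3, a repressor, was higher in KO1 (0.40, adjusted p = 0.0468). ETV7, a relative of the repressor ETV6, passed both thresholds in KO2, with means of 14.1 in WT and 47.5 in KO2 (log2 fold change 1.22, SE 0.38, adjusted p = 0.0115). In CBFB KO and KO1 its values were 0.69 (adjusted p = 0.0776) and 0.42 (adjusted p = 0.198). ELF2, ELK1, ELK4, ERF, ETV3, ETV6, FLI1 and GABPA had a mean of at least 100 in every table. ELF5, SPDEF, SPI1 and ERG were listed with means under 1 where they were listed at all.

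**Figure D4:**
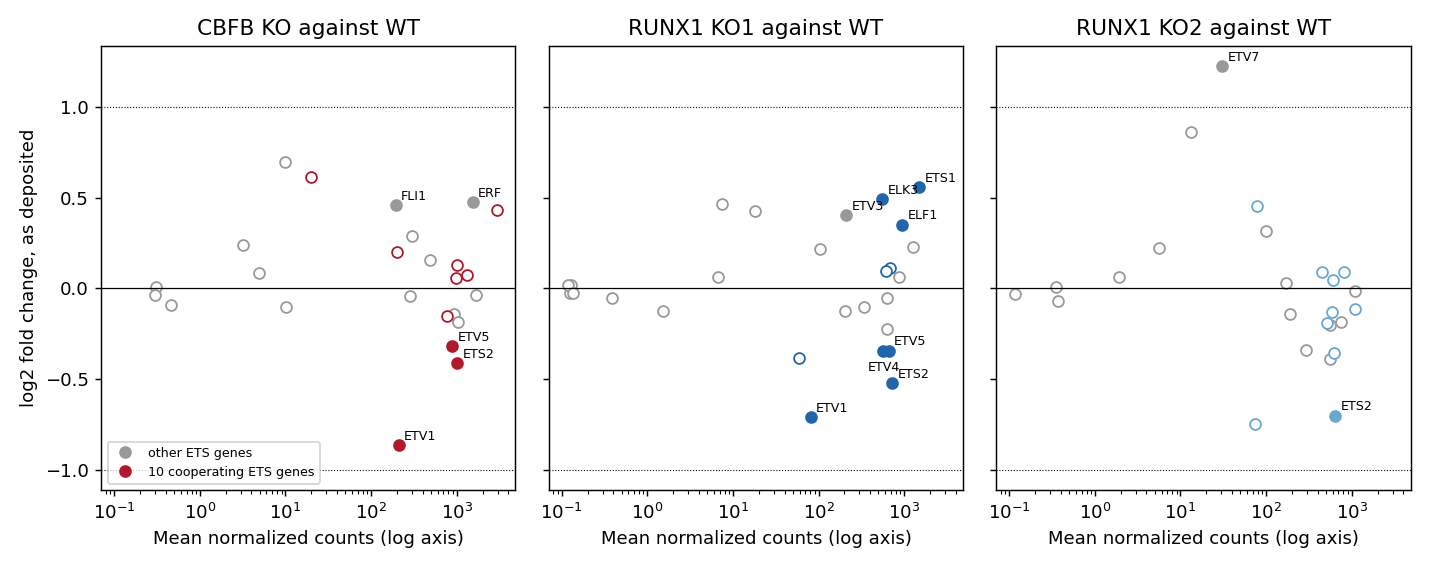
Deposited log2 fold change against the mean normalized counts (log axis) for the ETS genes listed in each table, the 10 genes in color and the other ETS genes in gray. Filled points have an adjusted p-value under 0.05 and are named, and dotted lines mark a 2-fold change. All named falls are among the 10 genes, and ETV7 in KO2 is the only point past a dotted line.

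Proteins that work with ETS factors were examined as a list of 13 genes, all tested in each table. Past the adjusted threshold were 1 higher and 2 lower genes for CBFB KO, 3 and 2 for KO1, and 1 and 1 for KO2. Of all genes tested, 11.7%, 19.7% and 8.76% were higher and 7.97%, 19.9% and 6.08% lower. The median log2 fold changes were -0.03, -0.04 and -0.05, against -0.01, -0.0017 and 0.02 over all genes tested. TLE3, a Groucho co-repressor that also binds RUNX proteins, was lower in all 3 (-0.50, -0.62 and -0.77, with adjusted p-values of 1.52e-04, 1.24e-04 and 0.00101). EP300, an acetyltransferase and co-activator of ETS and RUNX proteins, was lower in CBFB KO (-0.74, adjusted p = 3.09e-06) and had values of -0.24 and -0.48 in the clones (adjusted p = 0.352 and 0.490). CIC, the repressor that holds down the PEA3 group, had 0.30 in CBFB KO (adjusted p = 0.0193) and 0.33 in KO1 (adjusted p = 0.00243), both higher than WT, and its KO2 value was 0.11 (adjusted p = 0.809). MRTFA, the co-activator that competes with ternary complex factors for SRF, was higher in KO1 (0.35, adjusted p = 1.95e-04) and KO2 (0.37, adjusted p = 0.00266), and its CBFB KO value of 0.29 just missed the threshold (adjusted p = 0.0502). SRF itself was lower in KO1 (-0.24, adjusted p = 7.57e-04). COP1, which marks the PEA3 group for degradation, had values of 0.09, -0.04 and 0.01 and passed in no table.

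The ERK-responsive genes, 14 in number and all tested, gave 4 higher and 1 lower for CBFB KO, 6 and 1 for KO1, and 1 and 0 for KO2, with medians of 0.20, 0.18 and 0.05. Over all genes tested, 11.7%, 19.7% and 8.76% were higher and 7.97%, 19.9% and 6.08% lower, with medians of -0.01, -0.0017 and 0.02. SPRY4, a feedback inhibitor of receptor signaling, was higher in all 3 (0.79, 1.36 and 0.95, with adjusted p-values of 3.39e-04, 3.30e-36 and 4.95e-04). DUSP6, the phosphatase of ERK, was higher by 0.46 in CBFB KO (adjusted p = 0.0162) and by 0.43 in KO1 (adjusted p = 8.17e-04). PHLDA1 was likewise higher in both (0.58, adjusted p = 2.50e-04 and 0.36, adjusted p = 2.95e-05). In KO2 neither passed, with 0.18 for DUSP6 (adjusted p = 0.764) and 0.08 for PHLDA1 (adjusted p = 0.745). SPRY2, another inhibitor, was lower in KO1 (-0.54, adjusted p = 5.30e-04), and EPHA4, an ephrin receptor, was lower in CBFB KO (-0.76, adjusted p = 0.0180). SPRY2 had values of -0.17 in CBFB KO and -0.61 in KO2 (adjusted p = 0.348 and 0.249). Those of EPHA4 were -0.29 in KO1 and -0.51 in KO2 (adjusted p = 0.364 and 0.290).

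Genes with described ETS sites in their promoters were taken as a list of 26, of which 15, 23 and 21 were tested. Past the adjusted threshold were 3 higher and 2 lower genes for CBFB KO, 12 and 4 for KO1, and 7 and 1 for KO2, with medians of 0.08, 0.38 and 0.39. The shares of all genes tested were 11.7%, 19.7% and 8.76% higher and 7.97%, 19.9% and 6.08% lower, with medians of -0.01, -0.0017 and 0.02. Past both thresholds were 1, 6 and 6 genes, against 2.98%, 4.93% and 5.48% of all genes tested. ITGB6, a subunit of an epithelial integrin that activates TGF-beta, was higher past both thresholds in all 3 tables (1.21, 2.56 and 1.11, with adjusted p-values of 1.41e-04, 2.40e-151 and 0.0423). In both clones, MMP9 and PLAU, which break down matrix, were higher past both thresholds (MMP9 4.92 and 4.46, PLAU 2.09 and 1.62, in KO1 and KO2). So was PTGS2, the inducible cyclooxygenase (2.19 and 1.37). TERT, the catalytic subunit of telomerase, was lower past both in the clones (-1.77 and -1.16), and its CBFB KO value was -0.33 (adjusted p = 0.363). MMP9, PLAU and PTGS2 were not listed in the CBFB table. CLDN7, a tight junction protein, was higher at the adjusted threshold in every table (0.96, 0.43 and 0.86, with adjusted p-values of 0.00535, 3.51e-08 and 0.00171), as was ERBB2, the receptor tyrosine kinase (0.42, 0.52 and 0.63, with 4.19e-04, 4.26e-09 and 3.52e-08). TGFBR2, a receptor of TGF-beta, was lower, at -0.56 in CBFB KO (adjusted p = 1.74e-11) and -0.32 in KO1 (adjusted p = 0.0315), and its KO2 value was -0.46 (adjusted p = 0.400). These genes answer to many other factors, and no binding was measured.

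The genes around each ETS gene on its chromosome were compared with it, as a check for a gain or loss of a chromosome segment in a clone. Over the expressed neighbors, 12 on each side in the RefSeq order, the median log2 fold change lay between -0.14 and 0.08 in CBFB KO, between -0.15 and 0.16 in KO1 and between -0.20 and 0.19 in KO2.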

How the data were processed

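RNA-seq of 18 MCF10A samples was analysed from 3 tables of knockout against WT. The authors used Trimmomatic, STAR, DESeq2 and hg19, per the labels' processing notes. Read counter, annotation and versions are not given in the sources used here. The labels name a poly-A kit and the study's methods ribosomal RNA removal, and which applies is not known. All values are the authors' own fits: the deposited mean of normalized counts over libraries (treated as a signal), the deposited log2 fold change and its SE, the deposited Wald score, and the deposited two-sided p-values with their Benjamini-Hochberg adjustment. There were 0 columns of per-sample values, and total counts per library are not known.

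Genes with a fold change of 2 or more and an adjusted p-value under 0.05 were called. The fitted shrinkage was inverted with a normal prior whose SD was read as 2 times the largest SE of the table (0.586, 0.628 and 0.822 in the CBFB KO, KO1 and KO2 tables). For ETS1 and ELF3 in CBFB KO, whose SE is at that limit, a second solution exists (0.88 and 1.27 in place of 0.85 and 1.17). This step was chosen after the data were seen and tested on simulated data. Those data were shrunk with the same formula and prior that were then inverted. The test thus checks the arithmetic only, and not whether the prior is that of the deposited fits. CVs came from the undone SE and the group means. Differences between tables were tested with scipy 1.17.1 (Python 3.11.15, numpy 2.4.6, pandas 2.3.3). Transcript lengths and overlaps came from GENCODE release 29, and gene order, names and promoters from RefSeq.

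The 10 genes, the lists and the tests were chosen with earlier results of these data known. All 10 genes were named, and of the lists the genes past the thresholds in more than 1 table or with a known link to the 10 genes, the latter chosen after their values were seen. Alternatives were other thresholds, other sets of genes for the adjustment, centring, a trend on length and GC content, and undone shrinkage. One gene of the lists is not reported here by name.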

Additional observations from a re-analysis of the deposited data

Results flagged for a closer look

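ELF3 was marked for a closer look because its response differed between the experiments: the deposited log2 fold change was 0.61 in CBFB KO and -0.38 in RUNX1 KO1, a difference of 0.99 (SE 0.35, 95% interval 0.32 to 1.67, adjusted p = 0.0437 by a two-sided normal test with adjustment over all genes tested in both tables). The same difference from KO2 was 0.15 (SE 0.36, adjusted p = 0.999). Neither fold change of ELF3 passed the adjusted threshold by itself. Its mean was 19.6 normalized counts in the CBFB table, with a CV of 46.8%, and 59.4 in the KO1 table, with a CV of 19.7%. With the shrinkage undone the difference was 1.60 (adjusted p = 0.0694).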

How the results depend on the processing

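No paired analysis was possible because the tables hold no value per library, and for the same reason leaving out each replicate was not run. The number of ETS genes called was 0 in each table. Without the fold-change threshold it was 3, 7 and 1 for CBFB KO, KO1 and KO2, against 19.7%, 39.5% and 14.8% of all genes tested. At a threshold of 1.5 it was 1 in each, for which no share over all genes is given here. With the shrinkage undone it was 1 in CBFB KO (ETV1), against 4.62% of all genes tested. The number past the adjusted p-value alone in KO2 rose from 1 to 2 once a trend with transcript length and GC content was removed, where ETV5 came to -0.38 (adjusted p = 0.0451). In KO1 the same step took ELF3 to -0.49 (adjusted p = 0.0224). The share of all genes past the threshold after this step is not given here. The count of differences of CBFB KO from KO1 went from 1 to 0 under all 4 alternatives: adjustment over genes with a mean of at least 100, which leaves ELF3 out, and centring, removal of the trend and undone shrinkage, under which the ELF3 difference was 0.97 to 1.60 with adjusted p-values of 0.0511 to 0.0694. For these 3, the cause was not tested. At an adjusted p-value under 0.01, ETV5 in CBFB KO (-0.32, adjusted p = 0.0340) was no longer past the threshold. Of 175 values of single genes under these alternatives, 170 kept their direction and side of the threshold. Only centring and the trend step could turn a direction, since the other alternatives keep the sign of each fold change by construction. Undoing the shrinkage also keeps each p-value. The count of 170 is thus no measure of robustness. The trend step turned the sign of ELF4 in CBFB KO (0.056 to -0.043) and of ETV4 in KO2 (0.05 to -0.14), both far from the threshold with and without it. Precision is limited by the spread between libraries in the KO2 table and by low counts for ELF3.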

Other observations

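The WT of the CBFB experiment and that of the RUNX1 experiment differed in several of the ETS genes. Per 1000000 of the summed means of its table, ELF3 was at 0.597 in the WT of the CBFB experiment and at 3.77 in that of the RUNX1 experiment, and EHF at 9.04 and 32.7. These epithelial ETS genes thus had log2 ratios of -2.66 and -1.85, the first WT over the second. ETV1 went the other way, at 13.9 and 5.64 (log2 ratio 1.30), as did ELK3 (0.89) and ETS1 (0.63). Over 10531 genes whose mean reached 100 in both, the ratio ran from -0.61 at the 5th percentile to 0.85 at the 95th, so that ELF3, EHF, ETV1 and ELK3 lay outside that range, although ELF3 and ETV1 are below the mean of 100 in at least 1 of the tables and so not among the genes of this range. The tables were normalized separately, the experiments have separate libraries, and the difference was not tested. ETV1 in CBFB KO, at 6.81, was thus near the WT of the RUNX1 experiment at 5.64.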
